A study of Mus musculus with 12 samples.

Results

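Described here are 6 matrix metalloproteinases (Mmp2, Mmp3, Mmp9, Mmp10, Mmp13 and Mmp14) and 3 of their tissue inhibitors (Timp1, Timp2 and Timp3). The cells were mouse embryonic fibroblasts put through fat cell differentiation and labelled as fat cells. The members were all probe sets that map to exactly 1 of these 9 gene symbols. There were 20 of them among 22690 probe sets on the array, and all 9 genes were found among 12393 named genes. A probe set is a group of short probes read as 1 value, and several probe sets of a gene can lie in different parts of its transcript, so they are shown separately.

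In every group the cells were knocked out for PPARγ, a nuclear receptor needed to form fat cells, and a form of it had been introduced. One group carried S273A PPARγ, in which a serine that is phosphorylated in the receptor is replaced by alanine. The other groups carried wild-type PPARγ, treated with rosiglitazone, a thiazolidinedione and full agonist, or with MRL24, another PPARγ ligand, each at 1 µM over 24 h, or left untreated. All were differentiated for 6 days, and the ligands were added afterwards. There were 3 arrays in each of the 4 groups, 12 in all. Sample titles call the S273A form a mutant, and only the series description gives the substitution. Neither states a vehicle, how the receptor was introduced, or whether the untreated and S273A cells were collected on the same day as the treated ones. No label tells of more than 1 population of cells per receptor form, so the substitution and a difference between cell populations cannot be told apart. Nothing says that replicate arrays were separate cultures, so p-values measure the spread between arrays only, and that spread may be technical.

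Values are intensities on a linear scale. Array medians ran from 297 to 315, and 2.11% to 2.48% of an array's values stood at the lowest value of 1. One untreated wild-type array, replicate 2, lay away from the others, with a score of -24.96 on the first principal component (26.1% of the variance) against -7.15 to 11.7 on the other 11 arrays. All comparisons with untreated cells use it. Calls of members that change without it are given with the value found when it was left out, and counts of the related lists where they moved most.

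Matrix metalloproteinases are zinc-dependent enzymes that cut collagens, other matrix proteins and many secreted or membrane proteins. Most are made as inactive precursors and are activated by other proteases, and the TIMPs bind the active enzymes and block them. Fibroblasts turning into fat cells change from a fibrillar collagen matrix to one rich in basement membrane, and this remodelling depends on these enzymes. Activity was not measured here, only RNA.

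Of the 20 probe sets, 19 passed the intensity filter. The other was 1 of 6 for Timp2, probe set 1437081_at, which read 26.7, 25.7 and 12.3 in S273A cells, 24.4, 18.3 and 15.3 with rosiglitazone, 8.01, 10.2 and 5.95 with MRL24, and 24.97, 12.8 and 4.81 in untreated wild-type cells. It therefore gave no usable level of Timp2, whose other probe sets were bright. The 19 were tested with limma in a fit to all 12 arrays on log2(intensity + 16), and calls required an adjusted p (Benjamini-Hochberg, over all 15838 probe sets tested) under 0.05. Folds and log2 changes are on that scale.

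With S273A, 7 of the 19 probe sets were called against untreated wild-type cells, 1 higher and 6 lower, in 5 of the 9 genes. Over the whole array 7.71% of probe sets were called, 2.58% higher and 5.13% lower. With rosiglitazone 6 of 19 were called, 1 higher and 5 lower, each in a different gene, against 9.24% over the array (5.03% higher, 4.21% lower). With MRL24 4 of 19 were called, 2 higher and 2 lower, in 3 genes, against 8.44% over the array (5.76% higher, 2.67% lower). Setting arrays to the same median turned the split of all calls with MRL24 to 43.1% higher, where the values as deposited gave 68.3%. It also turned that with rosiglitazone, to 44.8% higher from the 54.5% of the deposited values. In the direct comparison of rosiglitazone with MRL24, 3 of 19 were called, all lower with rosiglitazone, against 2.25% over the array (1.27% higher, 0.979% lower). In that comparison 56.5% of all calls were higher with rosiglitazone, or 68.3% at equal medians. No member changed by as much as 2-fold, and the largest change was 1.52-fold. These 3 comparisons with untreated cells share the same 3 untreated arrays, so their values are given side by side and not as independent support for one another. The genes were picked with results of these data known, so a share above that of the array is a description of them.

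**Figure D1:**
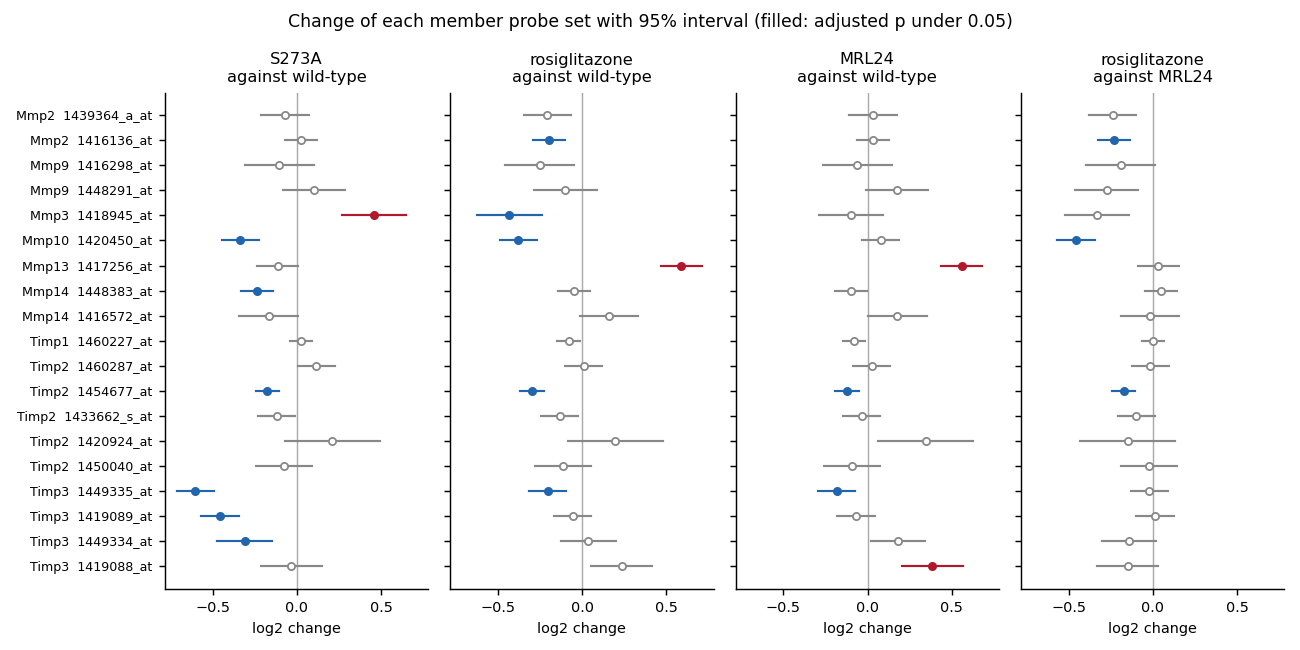
Log2 change of each of the 19 tested probe sets (rows, grouped by gene) in the 4 comparisons (panels), with its 95% interval as a horizontal line. Filled red points were called higher, filled blue points called lower and open grey points not called. Mmp13 was higher with both ligands, Mmp10 was lower with S273A and rosiglitazone, and Mmp3 was higher with S273A and lower with rosiglitazone.

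The median log2 change of the 19 probe sets was -0.10 with S273A, -0.10 with rosiglitazone and 0.02 with MRL24, against 0.00, 0.00 and 0.02 over all probe sets tested. Rosiglitazone against MRL24 gave -0.14 for the members and -0.02 for all. Arrays of the 2 groups compared did not overlap at all for 8 of 19 member probe sets with S273A, where 23.2% of the array did so. The counts were 10 with rosiglitazone (26.5% over the array), 8 with MRL24 (30.3%) and 6 for rosiglitazone against MRL24 (25.9%).

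Mmp3, Mmp10 and Mmp13 lie in 1 cluster of metalloproteinase genes on chromosome 9. In RefSeq's order Mmp13 comes first, then Mmp12, Mmp1b, Mmp3, Mmp1a, Mmp10, Mmp8 and Mmp27. The 3 neighbours gave the largest changes among the metalloproteinases, and in different patterns. Their promoters are shown because metalloproteinases of this cluster are well known to be induced through AP-1, the Fos and Jun dimer. The 250 bases before each gene's start are given on its own strand, from RefSeq on GRCm38.p6, with any AP-1 motif (TGANTCA, searched on both strands) in capitals.
Mmp3, chr9:7445572-7445821, plus strand: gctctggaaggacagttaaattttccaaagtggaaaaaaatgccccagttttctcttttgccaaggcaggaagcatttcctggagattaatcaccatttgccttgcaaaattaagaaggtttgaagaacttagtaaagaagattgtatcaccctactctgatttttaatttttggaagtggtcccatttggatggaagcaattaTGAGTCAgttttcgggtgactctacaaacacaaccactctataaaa
Mmp10, chr9:7502092-7502341, plus strand: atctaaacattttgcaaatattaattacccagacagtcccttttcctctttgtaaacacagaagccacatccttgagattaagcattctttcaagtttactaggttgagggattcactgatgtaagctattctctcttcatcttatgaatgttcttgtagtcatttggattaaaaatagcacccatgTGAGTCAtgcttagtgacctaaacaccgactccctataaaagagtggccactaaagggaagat
Mmp13, chr9:7272264-7272513, plus strand: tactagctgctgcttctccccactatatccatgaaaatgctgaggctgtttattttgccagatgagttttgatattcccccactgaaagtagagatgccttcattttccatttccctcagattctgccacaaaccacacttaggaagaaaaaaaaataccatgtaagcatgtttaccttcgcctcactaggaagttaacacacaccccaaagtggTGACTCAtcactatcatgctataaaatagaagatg
Each of the 3 held 1 AP-1 motif, with its first base at position -46 from the start in Mmp3, -63 in Mmp10 and -35 in Mmp13. Of 32851 mouse promoters of the same length, 6.75% held one. A TATA motif (TATAAA, forward strand) was also present in all 3, against 7.59% of promoters. The ETS motif AGGAAG, on either strand and overlapping no AP-1 motif, occurred in Mmp3, Mmp13, Mmp14, Timp1 and Timp3 (29.5% of promoters). Promoters were found for 7 of the 9 genes, all but Mmp2 and Mmp9, and those of Mmp14, Timp1, Timp2 and Timp3 held no AP-1 motif by these letters. The consensus DR1 motif, searched on both strands, to which PPARγ binds with RXR, was in none of the 7 and in 0.0335% of all promoters, so it is rare at this exact spelling. A match or its absence in this window is a description of letters only.

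Mmp3, stromelysin 1, cuts proteoglycans, laminin and non-fibrillar collagens and activates other metalloproteinases. Its intensity, by probe set 1418945_at, was 528.7, 540.4 and 504.4 in S273A cells, against 382.7, 373.4 and 374.8 in untreated wild-type cells. Every S273A array lay above every untreated array. The means were 524.5 ± 18.3 in S273A and 376.9 ± 5.02 in untreated cells (SD, n = 3), a log2 change of 0.46 (SE 0.09, limma adjusted p = 0.00492). With rosiglitazone Mmp3 read 249.8, 287.3 and 290.6, so all 3 arrays were below all untreated ones (log2 change -0.43, SE 0.09, limma adjusted p = 0.00613). MRL24 gave 399.4, 340.5 and 317.8, which spread across the untreated values (log2 change -0.10, 95% interval -0.29 to 0.09, not called). The order of means was S273A, untreated, MRL24 and rosiglitazone, and only the untreated and MRL24 arrays overlapped as neighbours. The S273A mean was 1.90 times the rosiglitazone mean.

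Mmp10, stromelysin 2, has a substrate range close to that of Mmp3. Probe set 1420450_at read 1585, 1770 and 1661 in S273A cells, against 2150, 2078 and 2111 in untreated wild-type cells. The log2 change was -0.34 (SE 0.05, limma adjusted p = 0.000932), and the arrays did not overlap. Mmp10 thus fell with S273A while Mmp3, on the same arrays, rose. Rosiglitazone arrays read 1640, 1639 and 1580, below every untreated array (log2 change -0.38, SE 0.05, limma adjusted p = 0.000214). MRL24 arrays read 2301, 2185 and 2200, all slightly above the untreated ones, but the change of 0.08 was not called (limma adjusted p = 0.373). Rosiglitazone against MRL24 gave -0.46 (SE 0.05, 95% interval -0.57 to -0.35, limma adjusted p = 9.2e-05), so the ligands differed for this gene. S273A and rosiglitazone arrays overlapped each other. The calls of Mmp3 and Mmp10 named here held under every alternative tried, with adjusted p no higher than 0.0349.

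**Figure D2:**
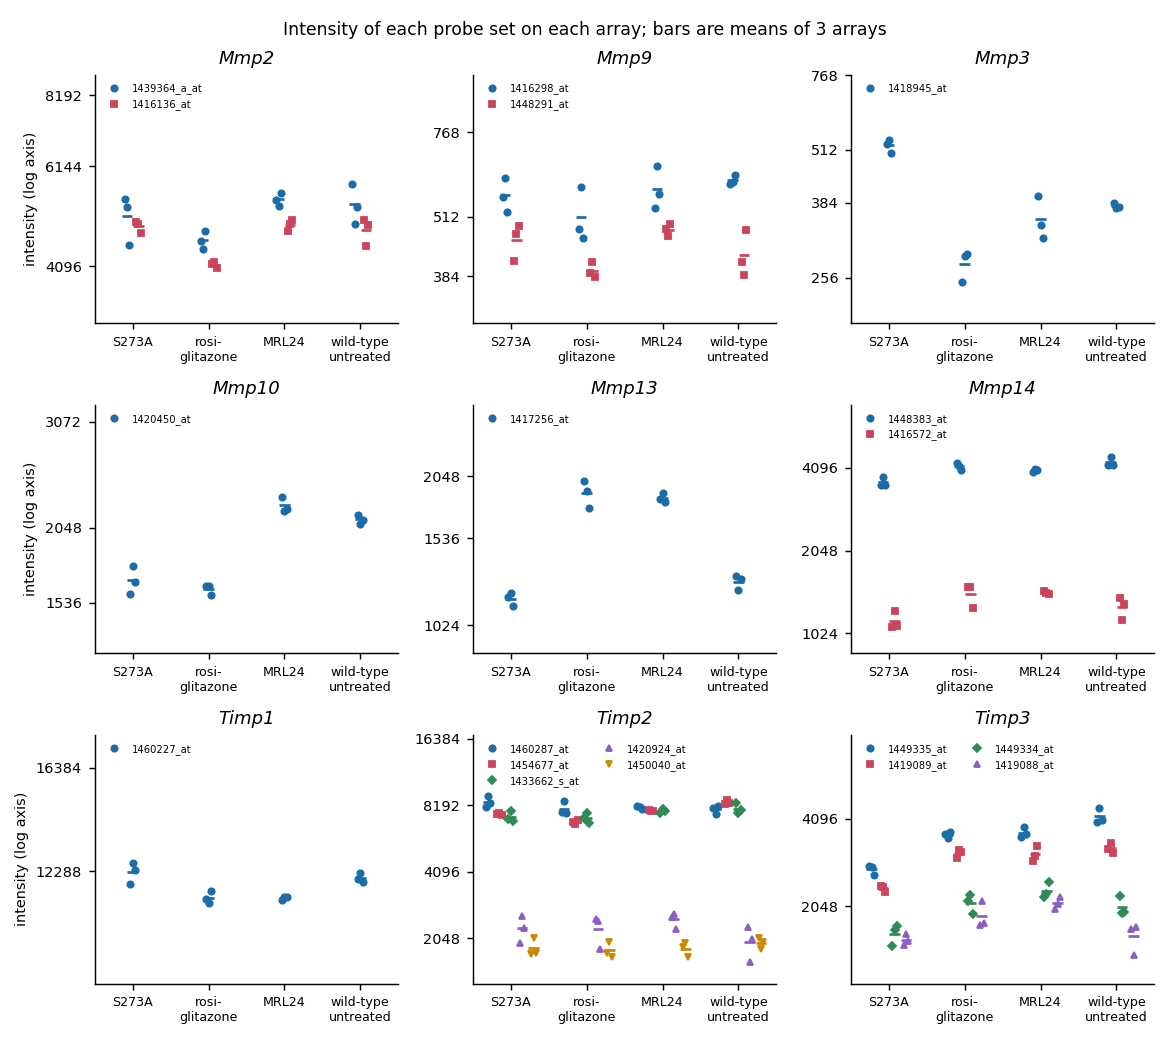
Intensity (log axis) of each tested probe set on each of the 12 arrays, with 1 panel a gene, groups along the horizontal axis, 1 colour and marker for each probe set and a short bar at the mean of 3 arrays. S273A arrays are highest for Mmp3 (504.4 to 540.4), both ligand groups are high for Mmp13 (1763 to 2006), and the Timp1 arrays stay between 11242 and 12590.

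Mmp13, a collagenase that cleaves fibrillar collagens, rose with both ligands. Probe set 1417256_at read 2006, 1912 and 1763 with rosiglitazone and 1846, 1896 and 1814 with MRL24, against 1285, 1208 and 1267 in untreated wild-type cells. All 6 ligand arrays lay above all 3 untreated arrays. The log2 change was 0.59 with rosiglitazone (SE 0.06, limma adjusted p = 8.05e-06) and 0.56 with MRL24 (SE 0.06, limma adjusted p = 0.000105). Rosiglitazone and MRL24 arrays overlapped, and their difference was 0.03 with a 95% interval of -0.09 to 0.15. S273A cells read 1166, 1187 and 1121, all below the untreated arrays, with a log2 change of -0.11 that was not called (95% interval -0.23 to 0.01, limma adjusted p = 0.268). The calls with both ligands held under every alternative tried.

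The gelatinases Mmp2 and Mmp9 cut denatured collagen and the type IV collagen of basement membranes. Both Mmp2 probe sets were lowest with rosiglitazone. Probe set 1416136_at read 4133, 4175 and 4064 with rosiglitazone, against 4939, 4437 and 4834 in untreated wild-type cells (log2 change -0.20, SE 0.04, limma adjusted p = 0.0104). The same arrays were also below MRL24, which read 4716, 4866 and 4946 (log2 difference -0.23, SE 0.04, limma adjusted p = 0.0101). The second probe set, 1439364_a_at, had means of 4551 ± 172 with rosiglitazone, 5372 ± 139 with MRL24 and 5266 ± 433 in untreated cells (SD, n = 3). Its changes, -0.21 against untreated cells and -0.24 against MRL24, were of like size but missed the threshold (limma adjusted p = 0.0624 and 0.075). Without untreated wild-type replicate 2, both passed (0.0211 and 0.0247), as they did without S273A replicate 3 (0.0261 and 0.0304), and over all alternatives they ran from 0.0101 to 0.208 and from 0.00269 to 0.258. The call of 1416136_at against MRL24 was lost without MRL24 replicate 2 or 3 or rosiglitazone replicate 3 (adjusted p up to 0.0674), and that against untreated cells in the fit to 6 arrays (0.0631). Neither Mmp2 probe set was called with S273A or with MRL24 against untreated cells.

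Mmp9 had no call in any comparison. Probe set 1416298_at averaged 568 ± 46.7 with S273A, 512 ± 69.4 with rosiglitazone, 585.5 ± 60.4 with MRL24 and 609 ± 13.8 in untreated wild-type cells (SD, n = 3). Probe set 1448291_at averaged 458 ± 39.2, 395 ± 14.2, 481 ± 14.4 and 426 ± 49.0 in the same groups. The lowest group by both was rosiglitazone. The log2 change with rosiglitazone was -0.25 by the first (95% interval -0.46 to -0.05) and -0.10 by the second (95% interval -0.29 to 0.09). The first missed the threshold (limma adjusted p = 0.117), and passed only without rosiglitazone replicate 2 (0.0416, in a range up to 0.328 over 22 alternatives). Between the ligands, 1448291_at read 390.5, 410.8 and 383.4 with rosiglitazone and 482.0, 466.4 and 495.1 with MRL24. These did not overlap, but the log2 difference of -0.28 was not called (95% interval -0.46 to -0.09, limma adjusted p = 0.128). It passed in the fit to 6 arrays (0.0387) and with array weights (0.0379), in a range up to 0.348 over all alternatives.

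Mmp14, a metalloproteinase anchored in the membrane, cleaves fibrillar collagen at the cell surface and activates the Mmp2 precursor together with Timp2. Probe set 1448383_at read 3552, 3798 and 3548 in S273A cells, below the 4184, 4481 and 4207 of untreated wild-type cells. The fall was called (log2 change -0.24, SE 0.04, limma adjusted p = 0.00357). The dimmer probe set 1416572_at read 1078, 1230 and 1085 against 1376, 1139 and 1309, which overlapped, and its change of -0.17 was not called (95% interval -0.34 to 0.01). Neither was called with a ligand. With MRL24 their estimates had opposite signs, -0.10 and 0.18. The log2 difference between the 2 probe sets had group means from 1.47 with MRL24 to 1.74 in untreated cells. Its variation over the 4 groups missed the threshold (exact permutation p = 0.0569, adjusted p = 0.135), which does not show that the 2 probe sets change alike.

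Timp1, a broad inhibitor that also binds the Mmp9 precursor, was near flat. Probe set 1460227_at read 11869, 12590 and 12321 with S273A, 11363, 11242 and 11619 with rosiglitazone and 11337, 11428 and 11454 with MRL24, against 12028, 12238 and 11918 in untreated wild-type cells. The arrays of both ligands lay below all untreated arrays, but the log2 change of -0.08 with each was not called (limma adjusted p = 0.124 with rosiglitazone and 0.116 with MRL24). Setting arrays to the same median moved both past the threshold (0.0484 and 0.0247), as did quantile normalization (0.0267 and 0.0358), in ranges up to 0.319 and 0.243 over all alternatives. At equal medians the changes were -0.10 and -0.13.

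Timp2, which inhibits metalloproteinases and also links the Mmp2 precursor to Mmp14, was read by 5 tested probe sets, and 1 of them carried every call. Probe set 1454677_at read 7462, 7557 and 7439 with S273A, 6854, 6749 and 7006 with rosiglitazone and 7769, 7760 and 7740 with MRL24, against 8297, 8673 and 8400 in untreated wild-type cells. No 2 groups overlapped. It was lower with rosiglitazone (log2 change -0.30, SE 0.03, limma adjusted p = 2.57e-05), with S273A (-0.17, SE 0.03, 0.00377) and with MRL24 (-0.12, SE 0.03, 0.0315). It was also lower with rosiglitazone than with MRL24 (-0.17, SE 0.03, 0.00868). The MRL24 call was lost without untreated wild-type replicate 2 (0.0789), without any 1 of the MRL24 arrays (0.0834 to 0.108) and in the fit to 6 arrays (0.0942). That against MRL24 was lost without MRL24 replicate 2 (0.0521) or rosiglitazone replicate 2 (0.0554), and that with S273A in the fit to 6 arrays (0.0578).

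The other 4 Timp2 probe sets, 1460287_at, 1433662_s_at, 1420924_at and 1450040_at, gave no call. Their log2 changes ran from -0.12 to 0.21 with S273A, from -0.13 to 0.20 with rosiglitazone and from -0.09 to 0.35 with MRL24. Probe set 1460287_at, the brightest, averaged 8516 ± 496 with S273A, 7917 ± 545 with rosiglitazone, 7992 ± 130 with MRL24 and 7862 ± 336 in untreated cells. Probe set 1420924_at scattered most, with 1956, 2584 and 2289 in S273A cells and 2300, 1597 and 2029 in untreated cells. Of the 10 pairs of Timp2 probe sets, 2 differed over the groups by an exact permutation test of the F statistic over all 15400 ways to divide the arrays (1460287_at against 1454677_at, and against 1433662_s_at, adjusted p = 0.0152 for both). Adjustment was over 19 pairs of probe sets of 1 gene. Neither passed without untreated wild-type replicate 2 (0.127 and 0.0876), S273A replicate 2 or 3, or MRL24 replicate 1. No single statement about Timp2 RNA therefore held for all its probe sets.

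Timp3 is bound to the matrix, and besides metalloproteinases it inhibits the shedding protease Adam17 and ADAMTS enzymes. It gave the largest change among the members and the widest disagreement between probe sets. Probe set 1449335_at read 2810, 2792 and 2612 in S273A cells, against 3973, 4461 and 4064 in untreated wild-type cells (log2 change -0.60, SE 0.05, limma adjusted p = 5.09e-06). Probe set 1419089_at read 2402, 2378 and 2290 against 3226, 3371 and 3119 (-0.46, SE 0.05, 6.67e-05). Both had every S273A array below every untreated array. Probe set 1449334_at read 1495, 1690 and 1748 against 2225, 1938 and 1961, again without overlap (-0.31, SE 0.08, 0.0203). The fourth, 1419088_at, read 1509, 1643 and 1553 against 1714, 1386 and 1733. These overlapped, and the change was -0.03 with a 95% interval of -0.21 to 0.15.

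Thus 3 of 4 Timp3 probe sets fell with S273A. The falls of 1449335_at and 1419089_at held under every alternative tried. That of 1449334_at was lost without S273A replicate 1 (0.0839), without untreated wild-type replicate 1 (0.0785) and in the fit to 6 arrays (0.07).

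With the ligands the changes of the 4 probe sets against untreated cells differed in sign. With MRL24, 1419088_at read 2004, 2088 and 2201, above every untreated array (log2 change 0.38, SE 0.09, limma adjusted p = 0.0145), while 1449335_at read 3529, 3830 and 3635, below every untreated array (-0.18, SE 0.05, 0.0417). The other pair gave 0.18 and -0.07 and was not called. With rosiglitazone 1449335_at read 3619, 3521 and 3687 and was called lower (-0.20, SE 0.05, limma adjusted p = 0.0216). Probe set 1419088_at read 1769, 2128 and 1790, all above the untreated arrays, and its change of 0.23 was not called (0.1). The remaining 2 changed by -0.06 and 0.04. No Timp3 probe set differed between rosiglitazone and MRL24 by the test, with 95% intervals that together spanned -0.33 to 0.12.

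The order of the 4 changes was the same in S273A, rosiglitazone and MRL24 cells: 1449335_at had the lowest estimate, then 1419089_at, then 1449334_at, and 1419088_at the highest. The 3 sets of changes share the untreated arrays. Of 6 Timp3 pairs, 2 differed over the groups by the exact permutation test: 1449335_at against 1419088_at (adjusted p = 0.033) and 1419089_at against 1419088_at (adjusted p = 0.0152). Their log2 differences changed by -0.57 and -0.42 with S273A and by -0.57 and -0.45 with MRL24. The first difference averaged 0.80 with S273A, 0.93 with rosiglitazone and 0.80 with MRL24, against 1.37 in untreated cells. The second averaged 0.58, 0.72 and 0.56 in the same order, against 1.01. In both pairs the untreated arrays lay above all arrays of the other groups, so the untreated group was the one that stood apart.

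Untreated wild-type replicate 2 was the highest untreated array for 1449335_at (4461) and 1419089_at (3371), and the lowest for 1449334_at (1938) and 1419088_at (1386). Without it neither pair passed (exact permutation test, adjusted p = 0.158 and 0.127), nor did they without S273A replicate 2 or 3 or MRL24 replicate 1. The falls of 1449335_at with rosiglitazone (0.0677) and MRL24 (0.149) were then not called either. The fall with rosiglitazone was also lost without rosiglitazone replicate 1 (0.0591) or 2 (0.0968). That with MRL24 was lost in 12 of 22 alternatives, with adjusted p from 0.0221 to 0.149 over all of them. The rise of 1419088_at with MRL24 was then 0.28 (0.0484). It was lost without MRL24 replicate 2 or 3 (0.0517 and 0.0734). The ratio of 3′ to 5′ probe sets of Actb, a measure of how complete the labelled RNA was, was 1.11, 1.15 and 1.05 in untreated wild-type cells. It was 1.06, 1.05 and 1.06 with S273A, 1.04, 1.03 and 1.06 with rosiglitazone and 1.06, 1.08 and 1.05 with MRL24. Untreated replicate 2 had the highest ratio for Actb, but its Gapdh ratio of 0.869 lay within the 0.846 to 0.898 of the other arrays. The part of RNA completeness in the split between Timp3 probe sets was not tested.

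**Figure D3:**
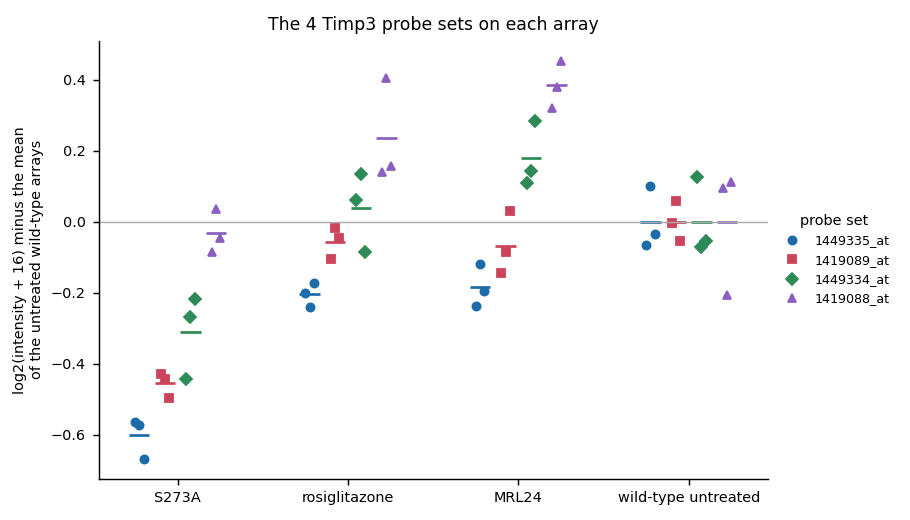
The 4 Timp3 probe sets on each array, as log2(intensity + 16) minus the mean of the untreated wild-type arrays (vertical axis), by group (horizontal axis), with a bar at the mean of 3 arrays. In each of the other groups the means step up from 1449335_at to 1419088_at, with means of -0.60 and -0.03 in S273A and of -0.18 and 0.38 with MRL24.

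The 2 ligands were compared at the same dose and time, over the 19 probe sets. Mmp10, Mmp2 by 1 of 2 probe sets and Timp2 by 1 of 5 were lower with rosiglitazone than with MRL24. Mmp3 was also lower, at 249.8 to 290.6 with rosiglitazone against 317.8 to 399.4 with MRL24, without overlap, but missed the threshold (log2 difference -0.33, SE 0.09, 95% interval -0.52 to -0.14, limma adjusted p = 0.0667). Without untreated wild-type replicate 2, which enters only through the shared estimate of the spread, it passed (0.0426), and with array weights the adjusted p was 0.0231, in a range up to 0.262 over all alternatives. Mmp9 by 1448291_at was lower too and not called, as given above. For Mmp13, Mmp14, Timp1 and Timp3 no difference was called. The intervals allow a log2 difference of at most 0.15 in size for Mmp13 and 0.07 for Timp1, and of up to 0.19 for Mmp14.

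Among other genes, the closest pattern to each called probe set was sought as the smallest root mean square difference over the 12 arrays, each gene centred on its own mean of log2 values. Mmp10 was closest to the phospholipase Ddhd1, at 0.06 where Mmp10's own SD was 0.20. Ddhd1 averaged 184 with S273A, 182 with rosiglitazone, 239.5 with MRL24 and 243 in untreated cells. Mmp3 was closest to the ubiquitin ligase gene Peli2 (0.11, own SD 0.33), which averaged 457, 275, 329 and 353 in the same order. Mmp13 was closest to the sphingosine 1-phosphate receptor S1pr3 (0.12, own SD 0.32) and then to ATP citrate lyase, Acly, an enzyme of fatty acid synthesis. The called Timp2 probe set was closest to the monocyte chemokine Ccl2 and the acute-phase gene Saa3 (0.03 and 0.04, own SD 0.11). The 4 Timp3 probe sets had different nearest genes: Spred2, Npr3, Paqr4 and Ywhaz, from the one that fell most with S273A to the one that fell least.

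Other genes of the pathway were taken from 5 lists. Over the array, 2.58% of probe sets were called higher and 5.13% lower with S273A. The shares were 5.03% and 4.21% with rosiglitazone, 5.76% and 2.67% with MRL24, and 1.27% and 0.979% for rosiglitazone against MRL24. Some counts of the lists lay near these shares, and all are descriptions of the lists. Of 18 further genes, metalloproteinases and Timp4, 13 were on the array and 6 had a tested probe set, 8 probe sets in all. None was called with S273A or MRL24, and 2 rose with rosiglitazone. Both belonged to Mmp19, a secreted metalloproteinase: 1421977_at averaged 537 ± 8.17 with rosiglitazone and 401 ± 26.3 in untreated cells (log2 change 0.41, limma adjusted p = 0.00213), and 1421976_at changed by 0.33 (0.0384). Only 1 rise was left without any 1 of 7 arrays, untreated wild-type replicates 1 and 2, rosiglitazone replicates 2 and 3 and all 3 of MRL24. The median of the 8 probe sets was 0.15 with S273A, 0.30 with rosiglitazone and 0.14 with MRL24.

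Of 21 tested probe sets of ADAM and ADAMTS proteases, 3 fell with S273A, against 5.13% over the array, and none rose. They were Adamts5 (-0.44) and Adamts1 (-0.32), which cut proteoglycans, and the shedding protease Adam10 by 1428103_at (-0.27). The other Adam10 probe sets gave 0.17 (1450104_at) and -0.02 (1450105_at), not called. Adam17, the shedding protease that Timp3 inhibits, fell by 0.33 on the log2 scale with rosiglitazone and by 0.25 with MRL24 by 1421858_at. Its probe set 1421857_at was called in the comparison of the ligands alone (-0.32, rosiglitazone against MRL24), and 1421859_at in none. Against untreated cells, 1421857_at gave -0.14 with rosiglitazone and 0.17 with MRL24, and 1421859_at gave -0.20 and -0.04. Adam8 fell by 0.18 with rosiglitazone. In all, 2 of the 21 fell with rosiglitazone, against 4.21% over the array, and 1 with MRL24, against 2.67%. When single arrays were left out, 1 fall was left with S273A without S273A replicate 2 or 3 or untreated wild-type replicate 1, and none with MRL24 without any 1 of 8 arrays: all 3 of MRL24, all 3 of rosiglitazone, S273A replicate 2 and untreated replicate 2. With rosiglitazone 1 of 2 falls was left without any MRL24 array, rosiglitazone replicate 1 or 2, or untreated wild-type replicate 2. In the activation and pericellular control list, 16 probe sets were tested. With rosiglitazone Serpinb2, an inhibitor of plasminogen activators, averaged 1636 ± 93.7, against 892 ± 32.6 with MRL24 and 985 ± 93.1 in untreated cells. It rose by 0.72 against untreated cells (limma adjusted p = 1.37e-05) and by 0.86 against MRL24 (7.43e-06). The urokinase receptor Plaur (0.22) and the tissue plasminogen activator Plat (0.18) also rose with rosiglitazone. The thrombospondins Thbs1 (1450377_at, 0.32) and Thbs2 (1422571_at, 0.19), matrix proteins that bind metalloproteinases, rose with MRL24. Their other probe sets gave 0.21 for Thbs1 (limma adjusted p = 0.0531) and 0.09 for Thbs2 (0.26), not called. Of the 2 calls, 0 were left without MRL24 replicate 2 or 3, and 1 without MRL24 replicate 1 or untreated wild-type replicate 2. Rosiglitazone against MRL24 gave -0.44 and -0.41 for the 2 Thbs1 probe sets. With S273A the 1 call was the hyaluronan receptor Cd44 by 1452483_a_at (0.32), while its probe set 1423760_at gave 0.11. That call failed on leaving out any 1 of 8 arrays: all 3 of S273A, untreated wild-type replicates 2 and 3, MRL24 replicates 2 and 3, and rosiglitazone replicate 2. Without untreated wild-type replicate 2, 2 others fell with S273A and 3 with rosiglitazone.

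Among matrix proteins that these enzymes cut, 12 of 36 probe sets fell with S273A, against 5.13% over the array, and 1 rose. The median was 0.02, and leaving out single arrays gave 10 to 12 falls. The largest falls were in single probe sets of fibrillar collagens. Col3a1 by 1427884_at averaged 376 ± 18.4 with S273A and 665 ± 60.5 in untreated cells (-0.79). Col1a2 changed by -0.76 (1423110_at), Col5a1 by -0.54 (1434479_at) and Col1a1 by -0.40 (1455494_at). Other probe sets of these genes fell less: Col3a1 by -0.36, Col1a2 by -0.38 and Col1a1 by -0.28. For Col5a1 they gave -0.35 (1416741_at) and -0.09 (1416740_at), the latter not called. With rosiglitazone 6 rose and 3 fell, against 5.03% and 4.21% over the array. Without untreated wild-type replicate 2 it was 5 and 5. At equal medians it was 6 and 5. The largest rises were single probe sets of Lamc1 (1423886_at, 0.44) and Lamb1 (1451241_at, 0.40), laminin chains, and of Col4a1 (1426348_at, 0.36). The other Lamc1 probe set gave 0.00, and the other 2 of Lamb1 gave 0.13 and 0.05, not called. Col3a1 fell by 0.50 by 1427884_at, while 1427883_a_at gave -0.13, not called (limma adjusted p = 0.0512). Another laminin chain, Lama4, picked out after its values were seen, fell by 0.30 on the log2 scale by 1424807_at (limma adjusted p = 0.00475). Its other probe set, 1424808_at, gave 0.02, not called. With MRL24 4 of 36 rose, against 5.76% over the array, and none fell. Among the rises were single probe sets of Lamb1 (1451241_at, 0.41) and Nid1 (1448469_at, 0.35). The other Lamb1 probe sets gave 0.11 and 0.07, and that of Nid1 0.06, not called. The untreated arrays of 1451241_at and 1448469_at spread widely, with means of 1791 ± 295 and 10560 ± 1710. Without MRL24 replicate 2 or 3 only 1 of the 4 rises was left.

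Of 22 probe sets for AP-1, ETS and cytokine regulators, 4 fell and 1 rose with S273A, against 5.13% and 2.58% over the array. The ETS factor gene Ets1 fell by 0.87 and 0.62 on the log2 scale by 2 probe sets, and by its 2 others gave 0.16 and 0.18, not called. Those 2 others rose with MRL24 (0.40 and 0.44). The difference between Ets1 probe sets was not tested. Of the 3 rises of the list with MRL24, 2 were left without any 1 of the MRL24 arrays or untreated wild-type replicate 2, and 1 in the fit to 6 arrays. With S273A, Fosl2, a Fos family member, fell by 0.32, and Atf3, a stress-induced partner of AP-1, rose by 0.40. The other AP-1 genes of the list, Fos, Fosb, Fosl1, Jun, Junb and Jund, had no call in any comparison. With rosiglitazone the interleukin 1 receptor Il1r1, through which interleukin 1 induces stromelysins, fell by 0.33 and was also lower than with MRL24 (-0.24, limma adjusted p = 0.0111, lost without MRL24 replicate 3 or rosiglitazone replicate 3). Il1r1 was called lower with S273A too (-0.17, limma adjusted p = 0.0409), where Mmp3 was higher and Mmp10 lower. A link between Il1r1 and the stromelysins was not tested. Tgfb1 rose with rosiglitazone (0.34) and MRL24 (0.31).

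**Figure D4:**
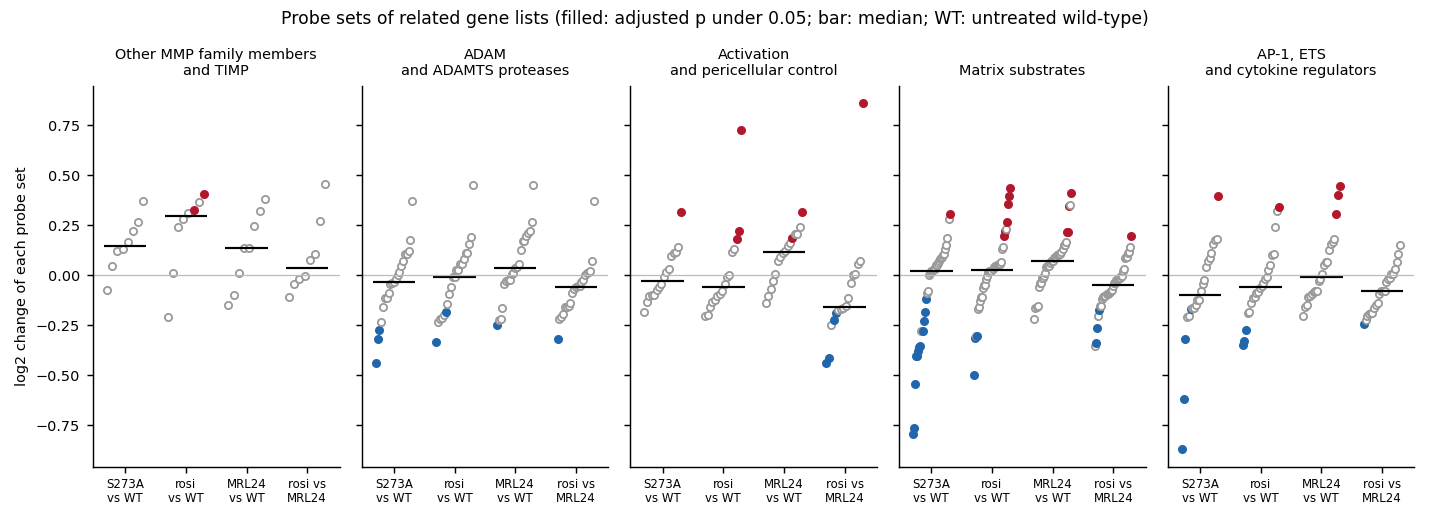
Log2 change of every tested probe set (points) of the 5 lists of related genes (panels) in the 4 comparisons (horizontal axis). Filled red points were called higher, filled blue points called lower, open points not called, and the black bar is the median of the list. The largest rise is Serpinb2 against MRL24 (0.86) and the largest fall is Ets1 with S273A (-0.87).

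The cells are labelled as differentiated fat cells. Of the 8 fat cell markers, 6 were on the array and Fabp4, Cd36 and Lpl passed the filter, while adiponectin (Adipoq), Lep and Cidec did not. The intensity summed over the 6, with the brightest probe set of each, was 11920 to 12650 with S273A, 30080 to 30640 with rosiglitazone and 18140 to 18350 with MRL24, against 11010 to 12780 in untreated wild-type cells. Fabp4 made up most of this sum. With S273A 2 of the 8 tested probe sets were called, both of Cd36, a fatty acid transporter, and both higher (log2 changes 0.99 and 0.82, limma adjusted p = 2.39e-05 and 1.46e-05). With rosiglitazone all 8 were higher, and with MRL24 6 of 8. All 5 fibroblast markers passed, summing to 31660 to 34400 with S273A, 34740 to 36270 with rosiglitazone and 36810 to 38770 with MRL24, against 34320 to 38270 in untreated cells. Dcn and Col1a1 made up most of these sums. Of their 8 probe sets 6 were called lower with S273A, against 5.13% over the array, and 2 were not called, among them Dcn (0.03). With rosiglitazone 2 of the 8 were called lower, against 4.21% over the array. With MRL24 1 was called higher and 1 lower, both of Pdgfra (1421916_at, 0.39, and 1421917_at, -0.23), against 5.76% and 2.67% over the array. Of the 19 member probe sets 6 were called lower with S273A, of Mmp10, Mmp14, Timp2 and Timp3. Mmp3 was higher, and 12 member probe sets were not called. In bulk RNA, fewer cells of a type and less RNA per cell cannot be told apart.

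Macrophages also make metalloproteinases. Of 9 macrophage markers 4 passed, and Itgam, Lyz2, Ptprc, Tyrobp and Fcgr1 did not. The sum over all 9 was 3712 to 3805 with S273A, 3153 to 3441 with rosiglitazone and 3182 to 3260 with MRL24, against 2976 to 3416 in untreated cells, so it was higher with S273A, where Mmp3 was higher. By mean, 7 of the 9 were higher with S273A. Cd68 averaged 869.7 ± 11.4 with S273A and 556.5 ± 37.0 in untreated cells and was called higher (log2 change 0.63, limma adjusted p = 5.07e-05), the 1 call among 6 tested probe sets of the list. Of the markers below the filter intensity of 101, Lyz2 and Ptprc averaged 9.89 and 44.0 with S273A and 17.6 and 48.5 in untreated cells. Itgam, Tyrobp and Fcgr1 went the other way, with 45.0, 67.0 and 35.8 with S273A and 37.1, 57.9 and 29.7 in untreated cells. Cartilage and bone cells make Mmp13. The 6 chondrocyte markers summed to 4480 to 5022 with rosiglitazone and 4959 to 5357 with MRL24, against 4339 to 5196 in untreated cells, with Col10a1 at or near the floor of 1 in every group and Col2a1 below the filter. Sox9 made up most of this sum, with means of 4278 with rosiglitazone, 4774 with MRL24 and 4189 in untreated cells. The 3 bone cell markers on the array summed to 414 to 475 with rosiglitazone and 457 to 469 with MRL24, against 397 to 462 in untreated cells, with Ibsp below the filter. Neutrophil markers summed to 433 to 460 with S273A, 422 to 478 with rosiglitazone and 414 to 437 with MRL24, against 443 to 479 in untreated cells, so MRL24 lay lower without overlap. Mast cell marker sums (440 to 507 over all arrays) overlapped between each group and untreated cells. Endothelial markers summed to 768 to 960 with S273A, 805 to 900 with rosiglitazone and 934 to 994 with MRL24, against 717 to 1077 in untreated cells. The part of any of these in the results was not tested.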

How the data were processed

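Biotin-labelled cRNA from total RNA of 12 samples was read on oligonucleotide arrays, per the labels' protocols. The authors deposited 1 table of linear intensity per probe set, with array medians from 297 to 315. The normalization, array software and genome build are not given in the sources used here. Gene symbols came from GEO's platform annotation: of 22626 probe sets that were no controls, 20380 had 1 symbol, 691 several and 1555 none here. An Entrez ID gave the current symbol of 20351, and it differed for none.

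The test took 15838 probe sets, those whose mean reached the 30th percentile (intensity 101). All 12 arrays were fitted on log2(intensity + 16) with limma 3.58.1 in R 4.3.3 (lmFit, eBayes with trend), on 8 residual and 7.76 prior degrees of freedom, and the residual SD had a median of 0.10. The offset understates changes of dim probe sets. Calls used Benjamini-Hochberg adjusted p under 0.05. Arrays, not probes, limit the precision. Probe sets of 1 gene were compared by an exact permutation test over 12 arrays. Tables and figures used python 3.11.15. The limma step and the exact test were tested on simulated data.

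Every member probe set was named, with up to 4 called probe sets per list and comparison and the 3 nearest genes by pattern, of which some are described. The members and lists were chosen with earlier results of these data known. Same-numbered arrays did not deviate together (12 pairs, r from -0.12 to 0.10), so numbers do not pair them. No 2 arrays held identical values. The promoters are RefSeq's.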

Additional observations from a re-analysis of the deposited data

How the results depend on the processing

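Of 20 calls of member probe sets, 11 held under every alternative that tested them, of 22, and 9 were lost under at least one. None changed sign. Of 56 comparisons of members not called, 8 passed under at least one alternative and 18 changed sign under at least one, none of those with a call. Leaving out single arrays gave 6 to 7 called member probe sets with S273A, 5 to 7 with rosiglitazone, 1 to 5 with MRL24 and 1 to 5 for rosiglitazone against MRL24. Over all probe sets it gave 723 to 1227 (1221 with all arrays), 752 to 1611 (1463), 322 to 1784 (1336) and 160 to 865 (356). The lowest counts came without S273A replicate 3, rosiglitazone replicate 2, MRL24 replicate 3 and MRL24 replicate 2. Without untreated wild-type replicate 2 there were 493 calls with MRL24 and 865 for rosiglitazone against MRL24. The 4 pairs of probe sets of 1 gene that differed became 0 to 5, with 0 without S273A replicate 2 or 3, MRL24 replicate 1 or untreated wild-type replicate 2. For these pairs the omissions were chosen after seeing the data.

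With 1 probe set per gene there were 4 called members with S273A, 2 with MRL24 and 1 for rosiglitazone against MRL24, each of 9, and 675, 739, 508 and 231 calls over 8675 genes in the order above. Fewer features were tested there. Fits to the 6 arrays of the groups compared, with fewer arrays for the spread, gave 2 members with MRL24 and 5 for rosiglitazone against MRL24, and 415, 734, 415 and 1006 calls in all. Array weights gave 6 members and 1105 calls for rosiglitazone against MRL24. Without a filter MRL24 gave 727 calls. The cause of these last changes was not tested. The numbers of the arrays did not pair them, and the replicate block gave 7, 6, 2 and 3 called members, all of them called without it (with MRL24 it ended those of Timp2 1454677_at, 0.0577, and Timp3 1449335_at, 0.0538), and 1017, 1239, 1059 and 280 calls in all.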
